A study of Mus musculus with 6 samples.

Results

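The cadherins described here are 8 genes, Cdh1, Cdh2, Cdh3, Cdh4, Cdh6, Cdh11, Cdh13 and Cdh16, read in dissected whole mouse kidneys of embryonic day 12.5. They were chosen by name from 18193 genes with a probe set of their own symbol, and every probe set that the platform annotation pairs with exactly 1 of these symbols was taken. That gave 17 of the 45101 probe sets on the array, 1 each for Cdh1 and Cdh16, 2 each for Cdh2, Cdh3, Cdh6 and Cdh11, 3 for Cdh4 and 4 for Cdh13. There were 6 single-colour arrays, 3 of beta-catenin conditional knockout kidneys and 3 of normal kidneys.

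Per the labels, the knockout kidneys came from mice that joined a beta-catenin allele (Ctnnb1) with loxP sites on both sides of exons 2 to 6 to Hoxb7-Cre:Gfp, a transgene that makes Cre recombinase together with a green fluorescent protein. The Hoxb7 promoter acts in the ureteric bud, the branching epithelium from which the collecting ducts form, so the nephron progenitors, stroma, vessels and blood of the same kidneys were not targeted. The normal kidneys are described as coming from normal mice, and whether they carried the loxP allele or the transgene is not stated there. Kidneys were sorted at random among 3 vials, with the number per vial not given, so p-values measure the spread between vials. One label field, the description, calls the knockout samples normal, against their titles and source names, and every direction below follows the titles. The targeted gene does not settle it: the brightest Ctnnb1 probe set read 6777, 6779 and 6586 in knockout replicates 1 to 3, against 5707, 6760 and 6549 in normal replicates 1 to 3. Its knockout minus normal difference was 0.09 on the log2 scale (limma adjusted p = 0.695). The other Ctnnb1 probe sets that passed the signal filter given below differed by 0.12 and 0.16 (limma adjusted p = 0.695 and 0.601). The targeted bud is only a part of the whole kidney. Where these probe sets lie relative to exons 2 to 6 was not analysed, so no conclusion on the deletion is drawn from their signals.

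Cadherins are calcium-dependent adhesion proteins that join a cell to its neighbour through like cadherins on both sides. In the classical types the tail inside the cell binds beta-catenin, which binds alpha-catenin and so reaches the actin cytoskeleton, while p120-catenin holds the cadherin at the membrane. The same beta-catenin carries canonical Wnt signals to the nucleus. Cdh1 to Cdh4 are type I classical cadherins and Cdh6 and Cdh11 are type II. Cdh13 (T-cadherin) is held by a lipid anchor and has no tail inside the cell, and Cdh16 (kidney-specific cadherin) has a short tail without the beta-catenin binding region, so these 2 are cadherins of kidney tissue but not classical ones. In the developing kidney Cdh1 and Cdh16 are known from the ureteric epithelium, Cdh4 and Cdh6 from the early nephron, Cdh2 from nephron precursors and later the proximal tubule, and Cdh11 from mesenchyme and stroma.

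The RefSeq promoter table (GRCm38.p6) held 1 of the 8 genes, Cdh6. Cdh6 as annotated spans chr15:13028699-13176407, and the start listed for its promoter lies inside that span, not at its outer end. The 100 bases before its listed start, chr15:13173676-13173775 on the minus strand, are shown because beta-catenin acts on genes through TCF/LEF factors and this window holds their core motif, in capitals.
Cdh6 promoter: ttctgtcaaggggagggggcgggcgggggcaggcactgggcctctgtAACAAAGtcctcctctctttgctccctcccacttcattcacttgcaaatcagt
The motif was searched on both strands as CTTTGNN with A or T at each N. The match lies on the reverse strand, 53 to 47 bases before the start. Of 32851 promoters 16.9% hold at least 1 in the 300 bases searched and 5.36% in the 100 before the start. As this window is shown for holding the motif, the share to read beside the match is that for 300 bases. The window also has 1 E-box, here CACTTG, and 2 overlapping GC boxes (GGGCGG, in 35.7% of promoters and 24.7% of 100-base windows). The E-box was searched as any CANNTG, which 72.3% of promoters and 34.4% of 100-base windows hold. The narrower forms read by single factors were not searched. These are letters only, and the Cdh6 signals given below come with no measurement at this promoter.

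Of the 17 probe sets, 14 passed a filter on dim signals (a mean log2 signal over all arrays above the 40th percentile, a signal of 14.7), and each of the 8 genes kept at least 1. None of these 14 passed when knockout was compared with normal kidneys, the smallest adjusted p being 0.29 (limma, Benjamini-Hochberg adjustment over 27022 probe sets). Over all kept probe sets 0.581% passed. At an unadjusted limma p under 0.05 stood 1 of the 14, or 7.14%, beside 11.5% of all kept probe sets. The knockout minus normal difference was positive for 7 and negative for 7, with a median of -0.02 on the log2 scale, against -0.01 over all kept probe sets. Signals below are linear MAS5 intensities, differences are on the log2 scale with the standard error in brackets, and levels of different probe sets are not set against each other, since probes bind with different strength. In whole kidneys, fewer cells of a type and less RNA per cell cannot be told apart.

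**Figure D1:**
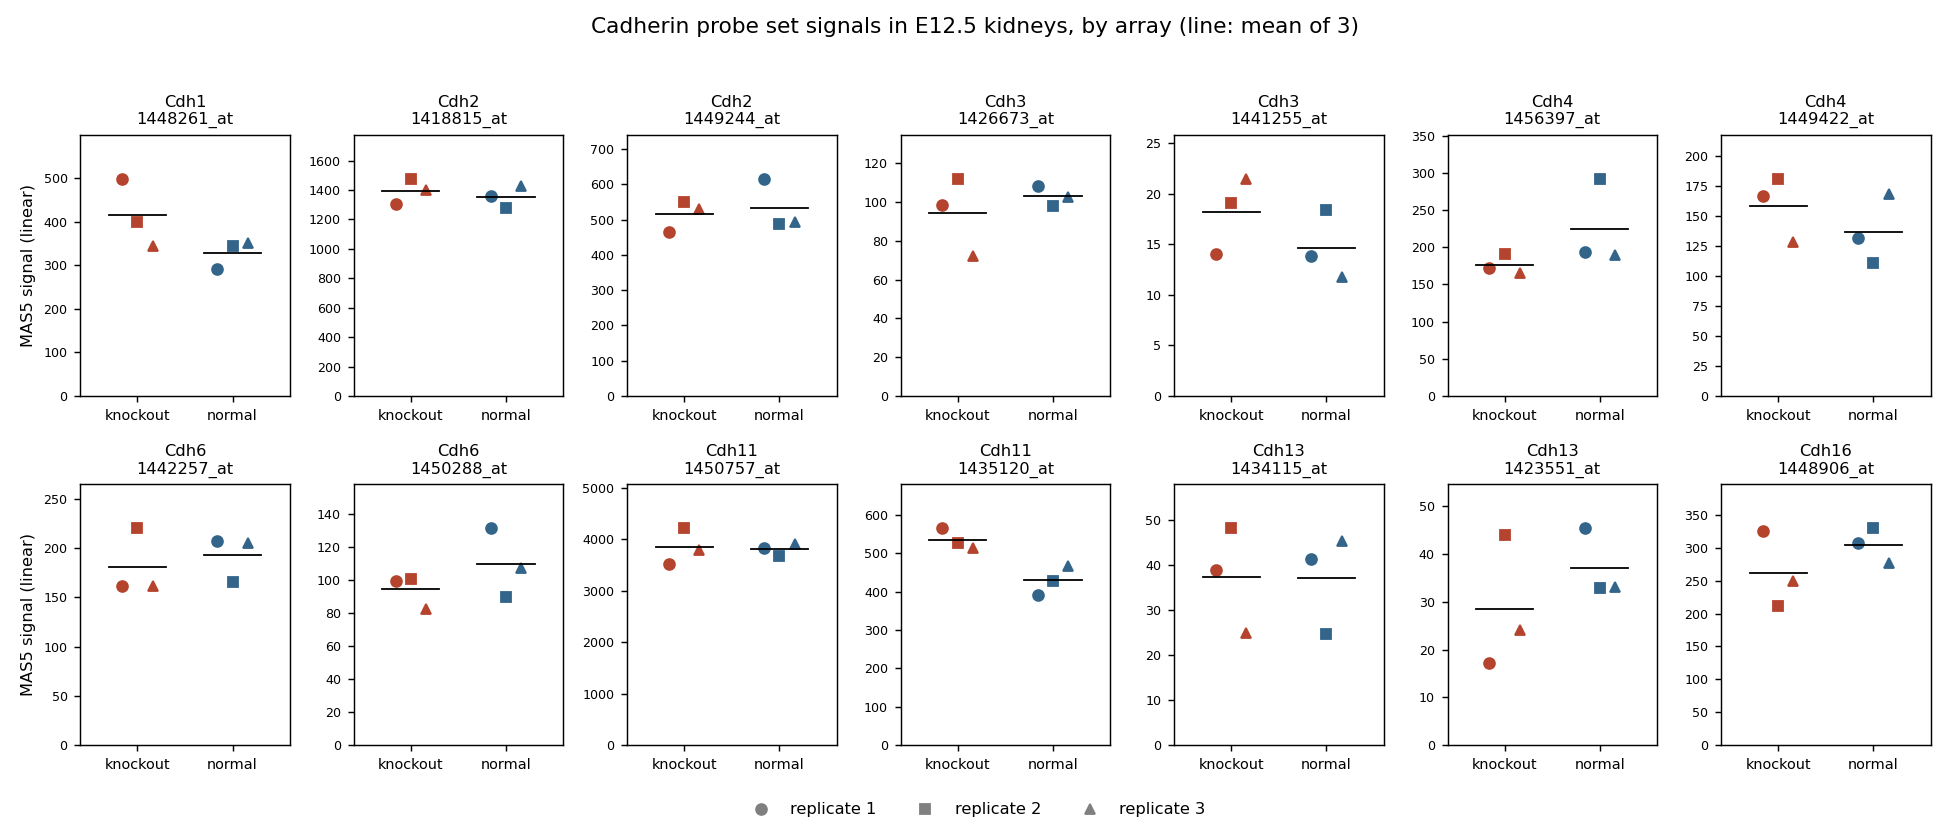
Signal of the 14 kept cadherin probe sets on each array (linear MAS5 signal from 0, 1 panel per probe set), knockout left and normal right, with the mean of 3 arrays as a line and the symbol giving the replicate number. The groups overlap in every panel but that of Cdh11 probe set 1435120_at.

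Cdh1 encodes E-cadherin, the main cadherin of the ureteric bud, the tissue in which the recombinase acts. Its 1 probe set (1448261_at) read 499, 400 and 345 in knockout replicates 1 to 3, against 291, 345 and 351 in normal replicates 1 to 3. Knockout replicates 1 and 2 lay above all normal arrays, while knockout replicate 3 lay within the normal range. The means were 415 ± 78.0 in knockout and 329 ± 33.0 in normal kidneys (SD, n = 3 each). The difference was 0.32 (SE 0.15), a ratio of 1.25 with a 95% interval from 0.993 to 1.57, and it did not pass (limma adjusted p = 0.444). Without knockout replicate 1 it was 0.18 (limma adjusted p = 0.719).

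Cdh16, the other cadherin of ureteric and tubule epithelium, had 1 probe set (1448906_at) with signals of 325, 212 and 250 in knockout replicates 1 to 3, against 307, 330 and 277 in normal replicates 1 to 3. Knockout replicate 1 lay among the normal arrays and knockout replicates 2 and 3 below them. The difference was -0.24 (SE 0.16), a ratio of 0.849 with a 95% interval from 0.661 to 1.09 (limma adjusted p = 0.596). Without knockout replicate 2 it was -0.09. Knockout replicate 1 was thus the highest knockout array for Cdh1 and for Cdh16. For Cdh3, an epithelial cadherin described below, it was not the highest on either kept probe set. The list of 16 ureteric epithelial markers (among them Epcam, Krt8, Ret and Wnt11) was lowest in knockout replicate 2, at -0.34, with knockout replicates 1 and 3 at -0.03 and -0.09, taking the normal mean as 0.

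Set against the mean of those 16 markers on the same array, Cdh1 stood 1.45, 1.44 and 0.97 above them on the log2 scale in knockout replicates 1 to 3. It stood 0.55, 0.83 and 1.05 above them in normal replicates 1 to 3. The groups overlapped by 1 array on each side. The means were 1.29 ± 0.27 in knockout and 0.81 ± 0.25 in normal kidneys (SD, n = 3 each), which differed by 0.48 (exact two-sided permutation p = 0.2, 0.5 after adjustment over the 5 such comparisons made, where 0.1 is the smallest p the design allows). Part of this difference came from the marker list, whose mean difference was -0.15, beside 0.32 for Cdh1 itself. Of the 16 markers, 3 had positive and 13 negative differences, and 0 passed. Cdh16 on the same scale stood at 0.62 ± 0.18 in knockout and 0.70 ± 0.065 in normal kidneys (SD, n = 3 each; exact permutation p = 0.5).

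Cdh3 encodes P-cadherin, a type I cadherin of epithelia, and is the neighbouring coding gene of Cdh1. Its brighter probe set (1426673_at) read 98.4, 112 and 72.1 in knockout replicates 1 to 3, against 108, 97.9 and 103 in normal replicates 1 to 3. The normal arrays lay close together and the knockout arrays spread to both sides of them. The difference was -0.15 (SE 0.19; limma adjusted p = 0.789). Its other kept probe set (1441255_at) read 11.8 to 21.5 on the 6 arrays, close to the filter level of 14.7, and differed by 0.31 (SE 0.37). The neighbours Cdh1 and Cdh3 thus had differences of opposite sign by their brightest probe sets, neither of which passed.

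Cdh2 encodes N-cadherin. Its brightest probe set (1418815_at) read 1303, 1477 and 1399 in knockout replicates 1 to 3, against 1359, 1278 and 1429 in normal replicates 1 to 3. The groups were interleaved, and the ratio of 1.03 had a 95% interval from 0.903 to 1.17, so a change of 1.2-fold either way falls outside it (limma adjusted p = 0.882). The other probe set (1449244_at) differed by -0.04 (SE 0.12), with normal replicate 1 the highest array at 616. Both Cdh2 probe sets stem from 1 sequence record, so they are not independent readings.

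Cdh2 was also set against 14 markers of the renal vesicle, the first epithelial stage of the nephron, among them Wnt4, Jag1, Lhx1 and Pax8. It stood 2.69, 3.13 and 2.91 above their mean log2 signal in knockout replicates 1 to 3, against 2.47, 2.42 and 2.62 in normal replicates 1 to 3. The groups did not overlap, and the difference of 0.40 had an exact two-sided permutation p of 0.1, the smallest the design allows, or 0.5 after adjustment over the 5 comparisons. Nearly all of it came from the marker list, whose mean difference was -0.36, beside 0.04 for Cdh2 itself. Of the 14 markers, 13 had negative differences and 0 passed. At an unadjusted limma p under 0.05 stood 9 of them, 8 negative and 1 positive, beside 11.7% of all genes tested.

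Cdh6 (K-cadherin), the type II cadherin of the early nephron and proximal tubule precursors, was measured by 2 probe sets. The brighter (1442257_at) read 162, 220 and 161 in knockout replicates 1 to 3, against 207, 165 and 205 in normal replicates 1 to 3. The dimmer (1450288_at) read 99.5, 101 and 82.2 in knockout replicates 1 to 3, against 131, 89.9 and 107 in normal replicates 1 to 3. On both, normal replicate 2 was the lowest normal array and knockout replicate 2 the highest knockout array. The differences were -0.10 (SE 0.16; limma adjusted p = 0.850) and -0.21 (SE 0.18; limma adjusted p = 0.685), within the spread between arrays. Relative to the renal vesicle markers Cdh6 stood at -0.05 ± 0.38 in knockout and -0.32 ± 0.19 in normal kidneys (log2, SD, n = 3 each; exact permutation p = 0.5).

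The probe sets of Cdh4 (R-cadherin), also known from the early nephron, disagreed in sign. The brightest (1456397_at) read 172, 192 and 166 in knockout replicates 1 to 3, against 193, 292 and 190 in normal replicates 1 to 3. Normal replicate 2 stood above all other arrays, and the groups overlapped narrowly at 192 in knockout replicate 2 and 190 in normal replicate 3. The difference was -0.32 (SE 0.18; limma adjusted p = 0.518), and -0.12 without normal replicate 2. The next probe set (1449422_at) read 167, 181 and 128 in knockout replicates 1 to 3, against 132, 111 and 168 in normal replicates 1 to 3, where normal replicate 2 was the lowest array. Its difference was 0.22 (SE 0.19; limma adjusted p = 0.683). The mean of both probe sets differed by -0.05 (SE 0.12). A further Cdh4 probe set was below the filter, with signals of 0.4 to 8.7.

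Cdh11 (OB-cadherin) is the type II cadherin of mesenchyme. Its brightest probe set (1450757_at) read 3508, 4217 and 3788 in knockout replicates 1 to 3, against 3818, 3675 and 3908 in normal replicates 1 to 3. The normal arrays lay inside the range of the knockout arrays, and the ratio of 1.01 had a 95% interval from 0.884 to 1.15 (limma adjusted p = 0.973). The dimmer probe set (1435120_at) read 566, 526 and 513 in knockout replicates 1 to 3, against 392, 429 and 467 in normal replicates 1 to 3. Here each knockout array lay above each normal array, with means of 535 ± 27.8 in knockout and 429 ± 37.4 in normal kidneys (SD, n = 3 each). The groups were also apart on 17.9% of all kept probe sets. The difference was 0.32 (SE 0.10), a ratio of 1.25 with a 95% interval from 1.07 to 1.46. It had the smallest p of the 14, an unadjusted limma p of 0.0103 and an adjusted p of 0.29, and did not pass. The Cdh11 probe sets thus gave a flat and a higher reading. Whether their differences differ was not tested, and where they lie on the transcript is not analysed here. Relative to 13 stroma markers, the brightest stood at 1.54 ± 0.062 in knockout and 1.55 ± 0.22 in normal kidneys (log2, SD, n = 3 each; exact permutation p = 1).

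**Figure D2:**
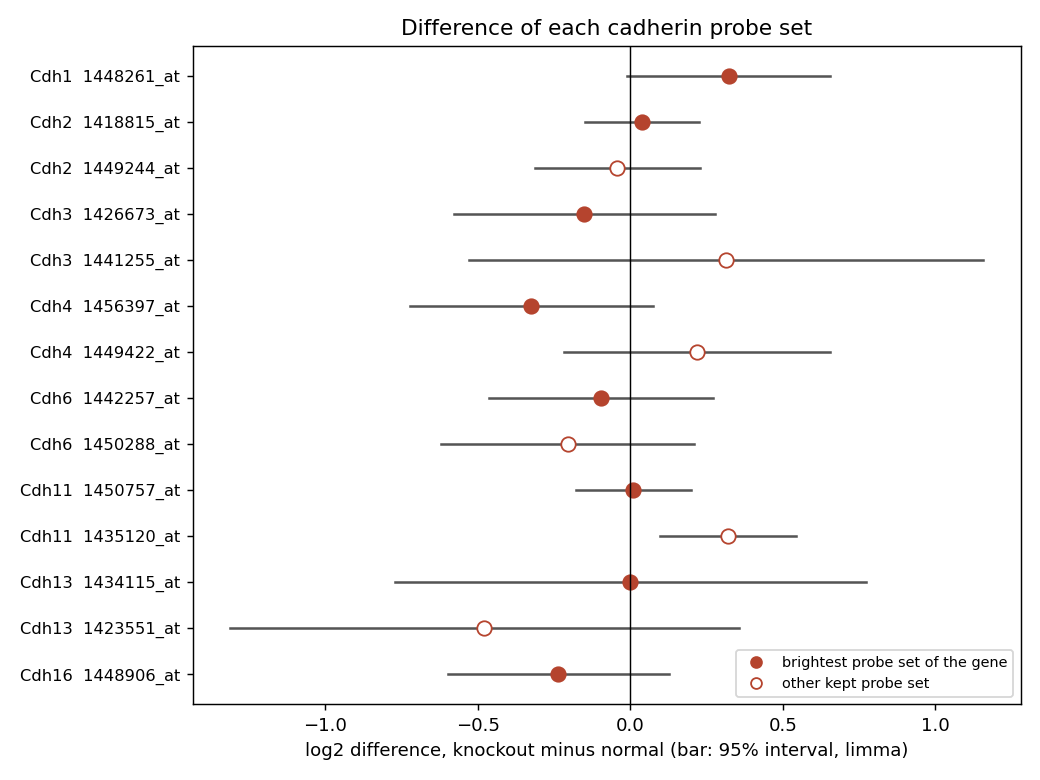
Knockout minus normal difference (log2, horizontal axis) of the 14 kept cadherin probe sets with the 95% interval of the limma fit; filled points are the brightest probe set of each gene. The interval of Cdh11 probe set 1435120_at is the 1 that leaves out 0, and it stands beside the flat reading of 1450757_at, the brightest Cdh11 probe set.

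Cdh13 (T-cadherin), known from vessels and smooth muscle, was dim. Its brightest probe set (1434115_at) read 38.8, 48.2 and 24.8 in knockout replicates 1 to 3, against 41.4, 24.7 and 45.3 in normal replicates 1 to 3, with a difference of 0.00 (SE 0.34; limma adjusted p = 1.00). The next (1423551_at) read 17.3, 44.1 and 24.1 in knockout replicates 1 to 3, against 45.5, 33.0 and 33.1 in normal replicates 1 to 3, with a difference of -0.48 (SE 0.37; limma adjusted p = 0.639). Knockout replicate 2 was the highest knockout array on both, and their intervals, from 0.586 to 1.71 and from 0.403 to 1.28 as ratios, bound little. The other Cdh13 probe sets were below the filter, 1 at 7.6 to 19.5 and 1 at 0.4 to 0.9 over the 6 arrays. On the first of these each knockout array lay below each normal array, at 10, 7.6 and 7.9 in knockout replicates 1 to 3, against 14.5, 11.9 and 19.5 in normal replicates 1 to 3. When fitted with no filter its difference was -0.83 (SE 0.50; limma adjusted p = 0.658).

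Of the 6 genes with several kept probe sets, 4 had them on both sides of 0, namely Cdh2, Cdh3, Cdh4 and Cdh13 (0.00 and -0.48). With the mean of all kept probe sets of a gene, the difference was 0.17 (SE 0.07) for Cdh11, 0.08 (SE 0.20) for Cdh3, 0.00 (SE 0.09) for Cdh2, -0.15 (SE 0.15) for Cdh6 and -0.24 (SE 0.30) for Cdh13, and none of the 8 genes passed. Cdh1 and Cdh16, with 1 probe set each, have no such check.

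**Figure D3:**
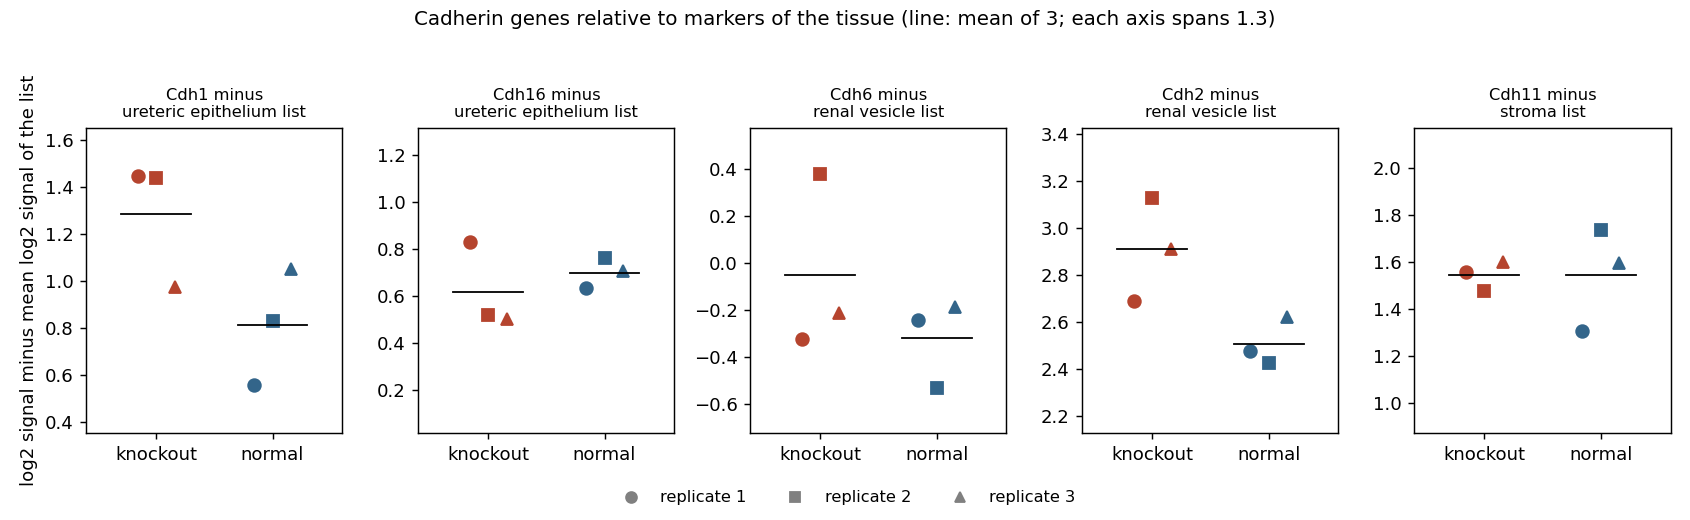
Log2 signal of the brightest probe set of 5 cadherin genes minus the mean log2 signal of a tissue marker list on the same array, knockout left and normal right, with the mean of 3 arrays as a line. For Cdh2 the knockout arrays lie at 2.69 to 3.13 and the normal arrays at 2.42 to 2.62, and in the other 4 panels the groups overlap.

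By the rule of the closest profile, the genes most like Cdh1 over the 6 arrays were Ebi3, a cytokine subunit, Elf3, an epithelial ETS transcription factor, and the kinase Mok. The root mean square difference of their centred log2 signals from those of Cdh1 was 0.059, 0.063 and 0.065, against a median of 0.30 over all genes. Elf3 read 85.1, 75.0 and 60.2 in knockout replicates 1 to 3, against 50.8, 64.9 and 59.0 in normal replicates 1 to 3. For Cdh6 the closest were Pknox2, Tbc1d22b and Bmp5, each at 0.04 to 0.05. For Cdh11 they were Prpsap2, Zfp46 and Zeb1, a transcriptional repressor of Cdh1, at 0.02 to 0.03. These are descriptions over 6 arrays, picked as the closest of 12464 genes, and none of these 9 genes passed the test.

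For comparison with the gene lists below, 0.602% of all 12464 genes passed by their brightest kept probe set and 11.7% had an unadjusted limma p under 0.05, with a median difference of 0.00. Of 14 other cadherin genes listed, 12 had a probe set and 6 passed the filter, and of these 5 had positive differences, 1 a negative one and 0 passed (0 also at an unadjusted limma p under 0.05). The smallest p belonged to Cdh9, a type II cadherin, at 0.55 (SE 0.28; limma adjusted p = 0.496), and to Cdh15 at 0.47 (SE 0.32; limma adjusted p = 0.598). Cdh15 is M-cadherin of skeletal muscle. It read 52.4, 76.5 and 32.2 in knockout replicates 1 to 3, against 40.2, 31.1 and 38.5 in normal replicates 1 to 3. The skeletal muscle list of 12 genes, which holds Cdh15, stood at 1.32, 3.41 and -0.02 in knockout replicates 1 to 3, in the same order as Cdh15, and at -0.08 to 0.13 in normal kidneys. Cdh5, the cadherin of endothelium, read 84.2, 162 and 148 in knockout replicates 1 to 3, against 281, 107 and 85.8 in normal replicates 1 to 3, and the endothelial list, which holds Cdh5, was highest in normal replicate 1 too, at 0.37.

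Of 18 listed partners of cadherins at the adherens junction, the catenins and nectins among them, 15 were kept, 8 with positive and 7 with negative differences, a median of 0.07, and 0 passed (1 at an unadjusted limma p under 0.05). That gene was Nectin2, an immunoglobulin-like adhesion protein that joins cells beside the cadherins. Nectin2 read 334, 321 and 368 in knockout replicates 1 to 3, against 565, 515 and 433 in normal replicates 1 to 3, so that each knockout array lay below each normal array. Groups that did not overlap, in either direction, were found on 17.9% of all kept probe sets. The Nectin2 difference was -0.56 (SE 0.12, limma adjusted p = 0.110). Ctnnd2, a p120-type catenin, differed by 0.40 (SE 0.19; limma adjusted p = 0.457). Plakoglobin (Jup), which can take the place of beta-catenin on cadherin tails, was named after its values were seen. It read 93.0, 112 and 82.5 in knockout replicates 1 to 3, against 242, 96.4 and 100 in normal replicates 1 to 3, where normal replicate 1 stood apart from the other five arrays. Its difference was -0.48 (SE 0.33; limma adjusted p = 0.602).

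Of 17 listed regulators of cadherin transcription 12 were kept, 8 with positive and 4 with negative differences, a median of 0.06, and 0 passed (1 at an unadjusted limma p under 0.05). That gene was Zeb2, a repressor of Cdh1, with 250, 266 and 233 in knockout replicates 1 to 3, against 196, 197 and 224 in normal replicates 1 to 3. Its difference was 0.28 (SE 0.11; limma adjusted p = 0.409). The 4 kept Zeb2 probe sets disagreed in size and sign. Probe set 1422748_at read 406, 296 and 372 in knockout replicates 1 to 3, against 180, 87.8 and 173 in normal replicates 1 to 3, a difference of 1.35 (SE 0.26; limma adjusted p = 0.0789) that missed the threshold. The remaining 2 differed by 0.32 (SE 0.18) and -0.37 (SE 0.28). Twist2 differed by 0.24 (SE 0.14; limma adjusted p = 0.540). Of 14 genes of cadherin shedding and turnover 11 were kept, 6 with positive and 5 with negative differences, a median of 0.04, and 0 passed (1 at an unadjusted limma p under 0.05). That gene was Cbll1 (Hakai), a ubiquitin ligase that acts on E-cadherin, at 0.32 (SE 0.13; limma adjusted p = 0.405), with its other kept probe set of opposite sign. Rab11a, a GTPase of the recycling endosome, differed by -0.15 (SE 0.10; limma adjusted p = 0.573), and its other kept probe set was also of opposite sign.

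**Figure D4:**
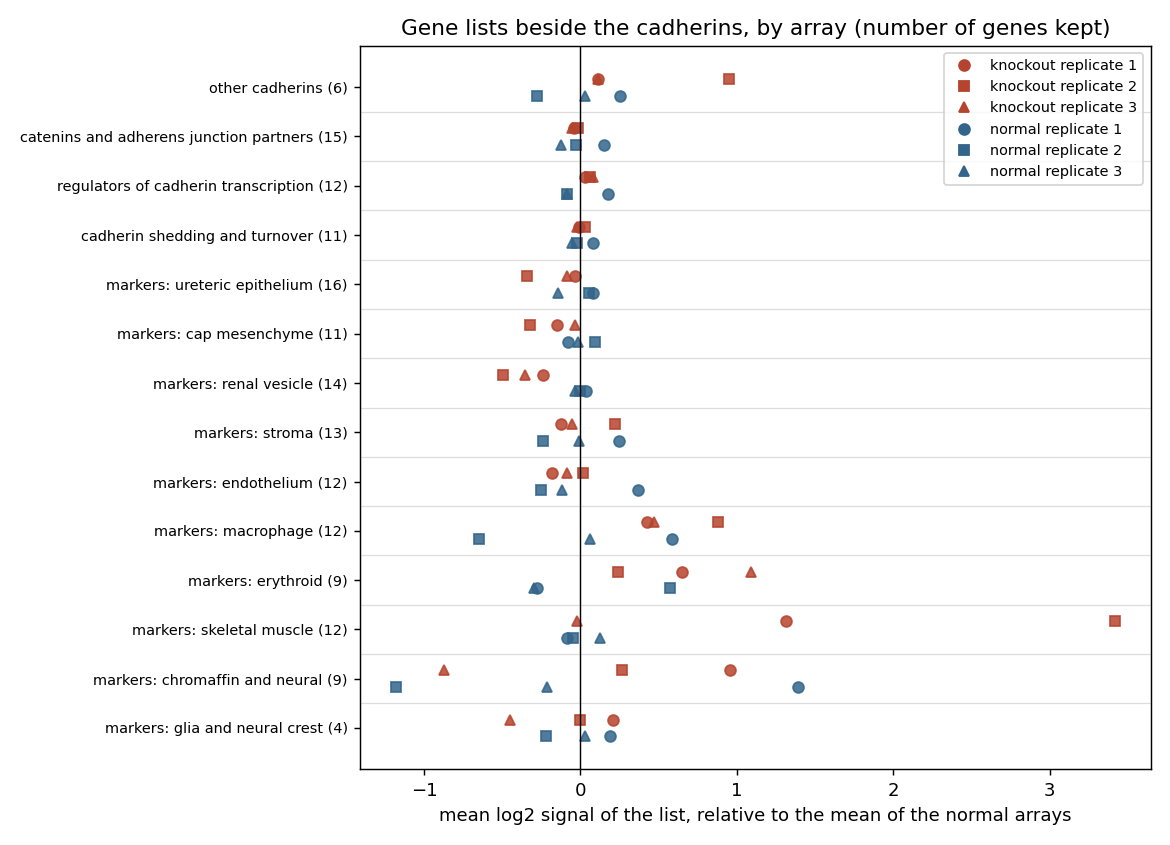
Mean log2 signal of each gene list on each array, with the normal mean as 0 (horizontal axis); the number of genes kept stands beside the name. The junction, regulator and turnover lists lie within 0.18 of 0 on all 6 arrays. The list of other cadherins reaches 0.95 in knockout replicate 2. The skeletal muscle list reaches 3.41 in knockout replicate 2 and the chromaffin and neural list 1.39 in normal replicate 1.

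Markers of other tissues differed between arrays beside these results. Of the marker genes with a probe set, 16 of 17 passed the filter for ureteric epithelium, 11 of 11 for cap mesenchyme, 14 of 14 for renal vesicle and 13 of 13 for stroma, so the defining tissues of the early kidney were all measured. The summed signal of the 12 skeletal muscle markers ran from 766 to 7376 in knockout and from 652 to 745 in normal kidneys. That of the 9 chromaffin and neural markers ran from 545 to 1475 in knockout and from 438 to 2063 in normal kidneys, and that of the 12 macrophage markers from 1259 to 1812 in knockout and from 606 to 1377 in normal kidneys. The summed signal of the 9 erythroid markers ran from 15886 to 22318 in knockout and from 12702 to 18306 in normal kidneys. That of the 12 endothelial markers ran from 2057 to 2250 in knockout and from 1820 to 2774 in normal kidneys, and that of the 4 glia and neural crest markers from 491 to 657 in knockout and from 529 to 728 in normal kidneys. By their brightest probe sets none of the genes of these 10 tissue lists passed the limma test. At an unadjusted limma p under 0.05, beside 11.7% of all genes, stood 1 of 16 ureteric, 6 of 11 cap mesenchyme, 9 of 14 renal vesicle and 3 of 13 stroma genes, and likewise 3 of 12 endothelial, 3 of 12 macrophage, 4 of 9 erythroid and 5 of 12 skeletal muscle genes, with 0 in the other lists. The cap mesenchyme list had 4 positive and 7 negative differences, with a median of -0.23, and of its 6 at an unadjusted p under 0.05, 2 were positive and 4 negative. The Hoxb7 probe set read at most 7.6 on any array, below the filter. The part of these tissues in the cadherin values was not tested. With normal replicate 1 and knockout replicate 2 both left out, a choice made after seeing the data, again 0 of the 14 cadherin probe sets passed, and Cdh1 differed by 0.25.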

How the data were processed

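Values were 1 linear signal intensity per probe set and array, which the authors computed in MAS5, per the submitters' processing notes; its version and detection calls are not given in the sources. Array medians ran from 24.9 to 32.1, a span of 0.37 on the log2 scale, so no further scaling was done. Before log2, 15 zeros were replaced by 1.7 (10th percentile of positive signals), and 64 Affymetrix controls were left out. Knockout and normal arrays, 3 each, were compared in R 4.3.3 by limma 3.58.1 (lmFit, eBayes with trend), p-values adjusted by Benjamini-Hochberg over 27022 probe sets, threshold 0.05. The number of arrays limits the precision. The fit was tested on simulated data.

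A gene was led by its brightest kept probe set over all 6 arrays, with symbols updated through the GRCm38.p6 gene table, which gave 12464 genes. Named genes are the 8 cadherins by each probe set, Ctnnb1, for each of the 4 junction and cadherin lists the passing genes or otherwise the 2 with the smallest p, and the 3 closest profiles to Cdh1, Cdh6 and Cdh11. Cdh5 and Jup were named in addition, outside this rule. Cadherins were also set against marker lists by exact permutation. Tissue marker lists (ureteric epithelium, cap mesenchyme, renal vesicle, stroma, endothelium, macrophage, erythroid, skeletal muscle, chromaffin and neural, glia and neural crest) are given by array. The members and lists were chosen with earlier results of these data known. Alternatives covered scaling, the filter, the floor, the variance model, array weights, the replicate number as a block and leaving out arrays.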

Additional observations from a re-analysis of the deposited data

How the results depend on the processing

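The count of 0 cadherin probe sets past the threshold held under each alternative run, and none of the 14 differences passed under any. The count over all kept probe sets, 157, was 434 with median scaling, 41 without the intensity trend, 253 at an adjusted p under 0.1, 44 with normal replicate 1 and knockout replicate 2 both left out (chosen after seeing the data), and from 49 to 148 with each array left out in turn, lowest without knockout replicate 3. It was 95 without normal replicate 3, 58 without knockout replicate 1 and 63 without knockout replicate 2. With the replicate block it was 109, and the block changed no cadherin call. Deviations of same-numbered arrays correlated at 0.08, -0.11 and -0.20, so the numbers were not taken to pair the samples.

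Signs turned for some differences whose main values lay from -0.15 to 0.04, and in each case neither value passed. Not all differences of this size turned: Cdh6 probe set 1442257_at, at -0.10, kept its sign in each alternative. For Cdh11 probe set 1450757_at the difference was -0.016 with quantile normalization, -0.0052 with array weights, and from -0.060 to 0.073 with 1 array left out. For Cdh13 probe set 1434115_at it was -0.037 with array weights, -0.24 with the mean of all probe sets, and from -0.27 to 0.27 with 1 array left out. For Cdh2 it was -0.0020 with the mean of all probe sets, and with 1 array left out from -0.0037 to 0.087 for probe set 1418815_at and from -0.10 to 0.066 for 1449244_at. For Cdh3 probe set 1426673_at it was 0.082 with the mean of all probe sets and from -0.29 to 0.031 with 1 array left out. With normal replicate 1 and knockout replicate 2 both left out it was -0.0011 and 0.016 for the Cdh2 probe sets, -0.056 for Cdh11 probe set 1450757_at and -0.11 for Cdh13 probe set 1434115_at. Cdh11 relative to the stroma list was 0.15 with the mean of its probe sets, 0.10 with the list median, and from -0.12 to 0.092 with 1 array left out. The cause was not tested.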

Other observations

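Beyond the 8 genes, 39 further genes of the wider cadherin superfamily, found by symbol (Cdh, Pcdh, Dsg, Dsc, Fat, Dchs, Celsr, Cdhr and Clstn, a choice made after values were seen), passed the filter. Of these, 19 had positive and 20 negative differences, with a median of -0.01. By limma with Benjamini-Hochberg adjustment 1 rose and 1 fell, against 0.602% of all genes called, and at an unadjusted p under 0.05 stood 9, beside 11.7% of all genes tested. The one that rose was Cdhr1, a cadherin of photoreceptors, with 74.9, 91.9 and 97.0 in knockout replicates 1 to 3, against 20.7, 23.9 and 29.5 in normal replicates 1 to 3. The one that fell was Celsr1, a cadherin of planar cell polarity, with 69.3, 68.1 and 67.7 in knockout replicates 1 to 3, against 237, 176 and 132 in normal replicates 1 to 3. The protocadherins, 19 genes, had a median of -0.20, and 0 passed (5 at an unadjusted limma p under 0.05). The smallest p among them belonged to Pcdh17, at 188 ± 22.6 in knockout and 105 ± 15.1 in normal kidneys (SD, n = 3 each), a difference of 0.85 (SE 0.16; limma adjusted p = 0.0649).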
